A study of Homo sapiens with 4 samples.

Results

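CALCRL and RAMP2 encode the 2 chains of the main adrenomedullin receptor. CALCRL is a class B G protein-coupled receptor that does not reach the cell surface or bind its peptides well on its own. RAMP2 is a single-pass membrane protein that travels with it and sets what it binds. The pair was taken by gene symbol from the 14812 named genes of the array, 1 probe set for each gene. Both members were found, each with 1 probe set, 16906285 for CALCRL (gene ID 10203) and 16834436 for RAMP2 (gene ID 10266). The pair was chosen by the measured log2 difference of CALCRL between SSRP1 siRNA and control siRNA, the largest increase among the named genes. Its values in that comparison are therefore a description, as are those of RAMP2, and no test is given for either.

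The partner decides the ligand of this receptor. With RAMP1 the CALCRL chain forms the receptor for calcitonin gene-related peptide (CGRP), and with RAMP2 or RAMP3 it forms adrenomedullin receptors. Receptor activation raises cyclic AMP through the G protein Gs. The adrenomedullin receptor is best known from blood and lymphatic vessels, where it keeps the endothelial barrier intact. Adrenomedullin was first isolated from a phaeochromocytoma, a tumour of the sympathoadrenal lineage from which neuroblastoma also arises.

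The samples were cells of BE(2)C, a long-established neuroblastoma line of human origin, transfected by lipid reagent with siRNA against SSRP1 (2 samples) or with non-targeting control siRNA (2 samples). SSRP1 is a subunit of the histone chaperone FACT. RNA was taken 72 hours after transfection and measured on the Affymetrix Human Gene 2.0 ST array, 1 for each sample. The labels give 1 catalogue item for the SSRP1 siRNA, and all 4 samples went through transfection, so no untransfected cells stand beside them. The labels do not say whether replicates were separate cultures. Errors and p-values therefore rest only on the spread among these 4 samples, which could be technical. Each SE comes from the limma fit, which draws a gene's variance towards that of all genes. It can thus be smaller or larger than the gene's own values alone would give.

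Values are log2 signals from RMA, the authors' normalization across arrays, on which a difference of 1 is a factor of 2. Signals of different probe sets do not rank their transcripts by abundance, so levels are compared only within a gene. A signal is called dim where it lies under 4.64, the median of all genes, since background then makes up more of it. The targeted gene SSRP1 had 7.42 and 6.97 on the SSRP1 siRNA arrays, against 9.05 and 9.23 on the control arrays. The number of arrays limits the precision. In bulk RNA, a change in the share of cells that carry a transcript and a change in the amount per cell cannot be told apart.

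CALCRL, the ligand-binding chain, was far higher with SSRP1 siRNA. Its log2 signal was 7.02 and 6.54 on the SSRP1 siRNA arrays, against 3.90 and 3.61 on the control arrays. The groups did not overlap, as was the case for 44.3% of all genes, and the smallest difference between any SSRP1 siRNA array and any control array was 2.64 and the largest 3.42. The mean was 6.78 ± 0.34 with SSRP1 siRNA and 3.75 ± 0.21 with control siRNA (SD, n = 2 each). The log2 difference was 3.03 ± 0.19 (SE), a signal 8.17 times that of the control arrays.

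The control signal of CALCRL was dim in that sense, and changes from dim signals are compressed by background. The gene just below CALCRL in the order of increases was ADRA2A, the alpha-2A adrenergic receptor, with a log2 difference of 2.25 ± 0.23 (SE). The step from ADRA2A up to CALCRL was 0.78. CALCRL kept the first place among named genes when any 1 of the 4 arrays was left out, with differences from 2.79 to 3.27. The gene was chosen for its place on these same arrays, so that order is a description and no further support. When all 46255 probe sets were ranked, CALCRL was in place 2, behind a probe set with no name here.

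The promoter of CALCRL is shown because this gene carries the result and its letters can be set against those of all promoters. The RefSeq window on GRCh38.p14 is chr2:187448203-187448502 on the minus strand, from 250 bases before the start of the gene to 50 after it. Capitals mark AGGAAG, the core that many ETS family factors bind.
CALCRL promoter: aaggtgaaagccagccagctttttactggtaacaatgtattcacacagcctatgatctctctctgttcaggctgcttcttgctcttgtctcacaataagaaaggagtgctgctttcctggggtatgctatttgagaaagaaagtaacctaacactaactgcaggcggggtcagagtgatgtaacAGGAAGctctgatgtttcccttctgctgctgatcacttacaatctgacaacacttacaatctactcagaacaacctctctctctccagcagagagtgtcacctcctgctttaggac

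This window held 1 CpG dinucleotide, where the median over 35116 promoters of the same length was 14, and 4% of them held fewer. Its GC content was 45.3%, against a median of 58.7%. AGGAAG occurred 1 time, counting both strands, and 33.6% of all promoters held it. The other letters searched on both strands were TGACGTCA (the cyclic AMP response element, in 1.8% of all promoters), CACGTG (an E-box, 7.3%), AGATAA (the GATA core, 10.3%), CACCC (bound by Krüppel-like factors, 59.9%), TGANTCA (the AP-1 site, 7.7%) and ACGTG (the hypoxia response core, 21.4%, which overlaps CACGTG). None of these occurred in the window, and that says only that the letters are not there.

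RAMP2, the chain that makes CALCRL an adrenomedullin receptor, did not follow it. Its log2 signal was 5.91 and 5.40 on the SSRP1 siRNA arrays, against 5.90 and 5.77 on the control arrays. The groups overlapped: SSRP1 siRNA replicate 1 was level with the control arrays, and SSRP1 siRNA replicate 2 was the lowest of the 4. The log2 difference was -0.18 ± 0.18 (SE), a signal at 88.6% of control, and 66% of all genes had a difference nearer to 0. That value depended on 1 array, since the difference was 0.08 when SSRP1 siRNA replicate 2 was left out and -0.43 when replicate 1 of that group was. CALCRL too was lower on SSRP1 siRNA replicate 2 than on replicate 1, by 0.48, but stayed well above both control arrays there.

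**Figure D1:**
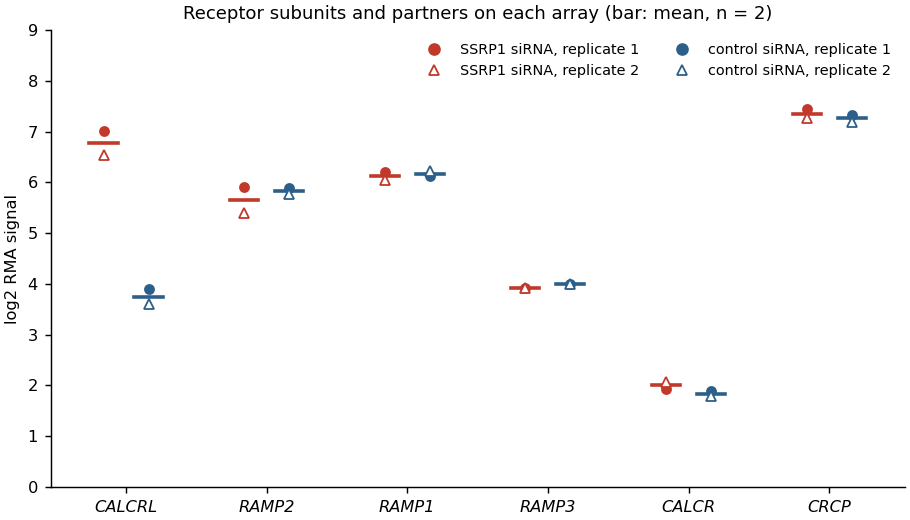
Log2 RMA signal of CALCRL, RAMP2, the other RAMP genes, CALCR and CRCP on each of the 4 arrays, with SSRP1 siRNA in red on the left of each pair and control siRNA in blue on the right (bars are means, n = 2 each). CALCRL lies at 7.02 and 6.54 with SSRP1 siRNA and at 3.90 and 3.61 with control siRNA, while RAMP2 and RAMP1 overlap. Heights are not comparable between genes.

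The other RAMP genes, CRCP and the related receptor gene CALCR, together called partners here, were examined in the limma fit over all genes. In that fit 14 of 14812 genes (0.0945%) passed at an adjusted p under 0.05. None of the 4 measured partners passed. RAMP1, which turns CALCRL into the CGRP receptor, had 6.20 and 6.05 on the SSRP1 siRNA arrays, against 6.13 and 6.22 on the control arrays. The groups overlapped, and the log2 difference was -0.05 (95% interval -0.33 to 0.22, limma adjusted p = 0.886). RAMP3, the second route to an adrenomedullin receptor, had 3.92 on both SSRP1 siRNA arrays, against 4.003 and 4.001 on the control arrays. The groups did not overlap, but the difference of -0.08 had a 95% interval of -0.32 to 0.16 (limma adjusted p = 0.792), and its signal was dim throughout. Small changes of either gene lie within these intervals.

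CALCR, the calcitonin receptor and closest relative of CALCRL, was near the floor of the arrays at 1.93 and 2.07 with SSRP1 siRNA, against 1.89 and 1.79 with control siRNA. The groups did not overlap, and the log2 difference was 0.16 ± 0.11 (SE, limma adjusted p = 0.616). CRCP, a small protein that couples the CGRP receptor to its signalling and is also a subunit of RNA polymerase III, had 7.45 and 7.27 with SSRP1 siRNA, against 7.33 and 7.20 with control siRNA. The groups overlapped, and the difference was 0.10 ± 0.12 (SE, limma adjusted p = 0.793). Next to 3.03 for CALCRL, the differences of RAMP2 and these 4 partners lay between -0.18 and 0.16.

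None of the 5 measured ligand genes passed the test. ADM, the adrenomedullin precursor, had 5.16 and 5.36 with SSRP1 siRNA, against 5.27 and 5.22 with control siRNA. The 2 groups overlapped, and the log2 difference was 0.02 (95% interval -0.26 to 0.30, limma adjusted p = 0.971). CALCA, which encodes calcitonin and alpha-CGRP, had 2.83 and 2.99 with SSRP1 siRNA, against 3.14 and 3.31 with control siRNA. Both SSRP1 siRNA arrays were below both control arrays, with a difference of -0.32 ± 0.12 (SE, limma adjusted p = 0.377) at a dim level. CALCB, the beta-CGRP gene, had a difference of -0.07, ADM5 one of -0.14 and IAPP, the amylin gene, one of -0.12 on the log2 scale. The control means of CALCB, IAPP and ADM5 were dim as well, so little can be read from them. ADM2, the intermedin gene, is not analysed here.

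Enzymes that mature or break down the peptides were measured for 6 genes, and none passed the test. PAM, the amidating enzyme that adrenomedullin and CGRP need for activity, had 7.12 and 7.31 with SSRP1 siRNA, against 7.04 and 6.94 with control siRNA. The SSRP1 siRNA arrays were above the control arrays, by 0.22 ± 0.12 (SE, limma adjusted p = 0.512). ECE1, an endothelin-converting enzyme that also degrades CGRP in endosomes and so lets CALCRL recycle, had 8.44 and 8.30 with SSRP1 siRNA, against 8.13 and 7.95 with control siRNA. Again the groups did not overlap, and the difference of 0.34 ± 0.12 (SE) had a limma adjusted p of 0.354. The convertase gene FURIN had a difference of 0.13, the carboxypeptidase gene CPE one of 0.04, the insulin-degrading enzyme gene IDE one of 0.01 and MME, the neprilysin gene, one of -0.08 on the log2 scale. The scavenger receptor ACKR3, which takes up adrenomedullin, had a difference of 0.08. ACKR5, also known as GPR182 and once listed as an adrenomedullin receptor, had a difference of -0.27 ± 0.14 (SE, limma adjusted p = 0.506). CPE, MME, ACKR3 and ACKR5 were dim in both groups, so little can be read from them.

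**Figure D2:**
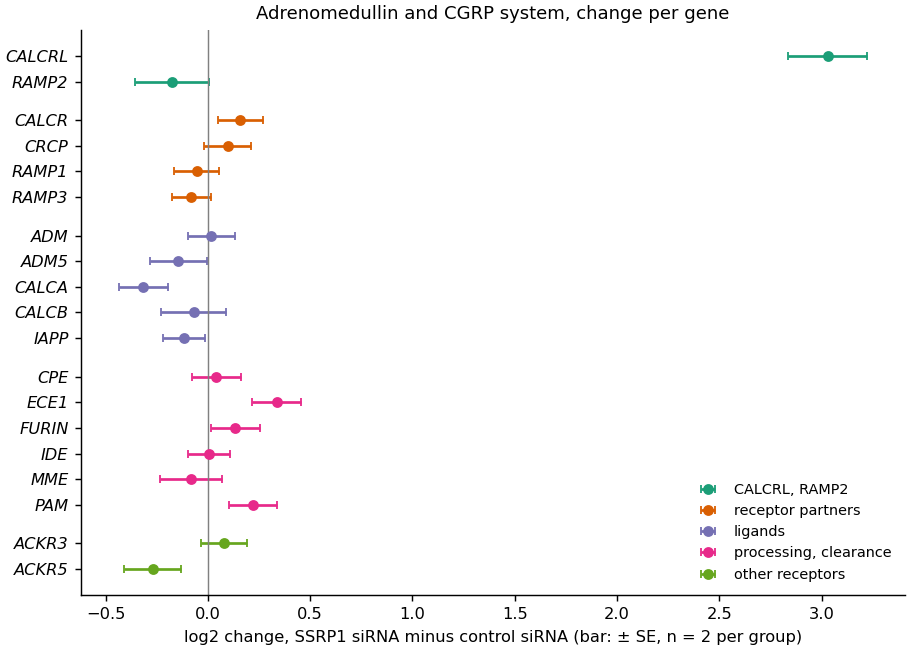
Log2 difference, SSRP1 siRNA minus control siRNA, for CALCRL, RAMP2 and the measured genes of their partners, ligands, processing enzymes and other receptors (points with ± SE, n = 2 per group). CALCRL lies at 3.03, and all other genes lie between -0.32 and 0.34.

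The steps after the receptor were followed through lists of Gs and cyclic AMP signalling genes, receptor trafficking genes and CREB target genes. Of 35 genes of Gs and cyclic AMP signalling 20 were measured, and the protein kinase A subunit genes, PRKACA and PRKACB among them, are not analysed here. None of the 20 passed, and their median log2 difference was 0.12, against -0.01 over all genes. The smallest p belonged to PDE8A, a phosphodiesterase that breaks down cyclic AMP, with 6.48 and 6.54 in SSRP1 siRNA cells, against 5.99 and 6.01 in control cells. Its groups did not overlap, and the difference was 0.52 ± 0.10 (SE, limma adjusted p = 0.169). With a variance trend its adjusted p was 0.049, and among genes at or above the median level it was 0.0385. PDE7A, another cyclic AMP phosphodiesterase, was next with a difference of 0.34 ± 0.12 (SE, limma adjusted p = 0.361). Of the adenylyl cyclases, the enzymes that make cyclic AMP, the 9 genes ADCY1 to ADCY9 had differences from -0.09 to 0.30.

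Genes that cyclic AMP induces through the transcription factor CREB had differences of both signs. Of 16 CREB target genes 11 were measured, with NR4A1, NR4A2 and NR4A3 not analysed here, and none of the 11 passed. Of these, 4 had differences above 0 and 7 below, and the median was -0.12. Of the 11, 6 (54.5%) had an unadjusted limma p under 0.05, 3 higher and 3 lower, where all genes gave 12.6%. Of the 11, 8 lay at or above the median level. Limma on genes at that level alone gave such a p for the same 6 and for 1541 of all 7406. The list was fixed with earlier results of these data known and was not tested as a set. PER1, a circadian clock repressor gene, had 6.50 and 6.20 with SSRP1 siRNA, against 7.13 and 6.95 with control siRNA. Both SSRP1 siRNA arrays were below both control arrays, the log2 difference was -0.69 ± 0.14 (SE, limma adjusted p = 0.183), and with a variance trend the adjusted p was 0.0485. SIK1, a kinase that restrains CREB co-activators, had a difference of -0.41 ± 0.10 (SE, limma adjusted p = 0.226). In the trafficking list 4 of 9 genes were measured and none passed. The smallest p there were those of GRK4, a receptor kinase, at -0.35, and GRK6, of the same family, at 0.19. GRK4 was dim in both groups.

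The other class B receptors for peptide hormones gave no call either. Of 12 measured, 6 had differences above 0 and 6 below, between -0.40 and 0.54 with a median of 0.03. ADCYAP1R1, the receptor for the neuropeptide PACAP, had 4.57 and 4.62 with SSRP1 siRNA, against 4.94 and 5.07 with control siRNA, a difference of -0.40 ± 0.11 (SE, limma adjusted p = 0.254). VIPR2, which binds VIP and PACAP, had 4.56 and 4.85 with SSRP1 siRNA, against 4.01 and 4.32 with control siRNA, a difference of 0.54 ± 0.16 (SE, limma adjusted p = 0.296). Those 2 receptors for related peptides thus had differences of opposite sign, but neither passed. VIPR2 was dim with control siRNA, and ADCYAP1R1 was just under the median with SSRP1 siRNA. Of the 12 receptors, only 3 lay at or above the median level on average. Over all 8 lists around the receptor 64 of 94 genes were measured, and 0 of the 64 passed the limma test. At an unadjusted limma p under 0.05 there were 14 of the 64 (21.9%), 8 higher and 6 lower, where all genes gave 12.6%. These lists too were fixed with earlier results of these data known and were not tested as sets.

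**Figure D3:**
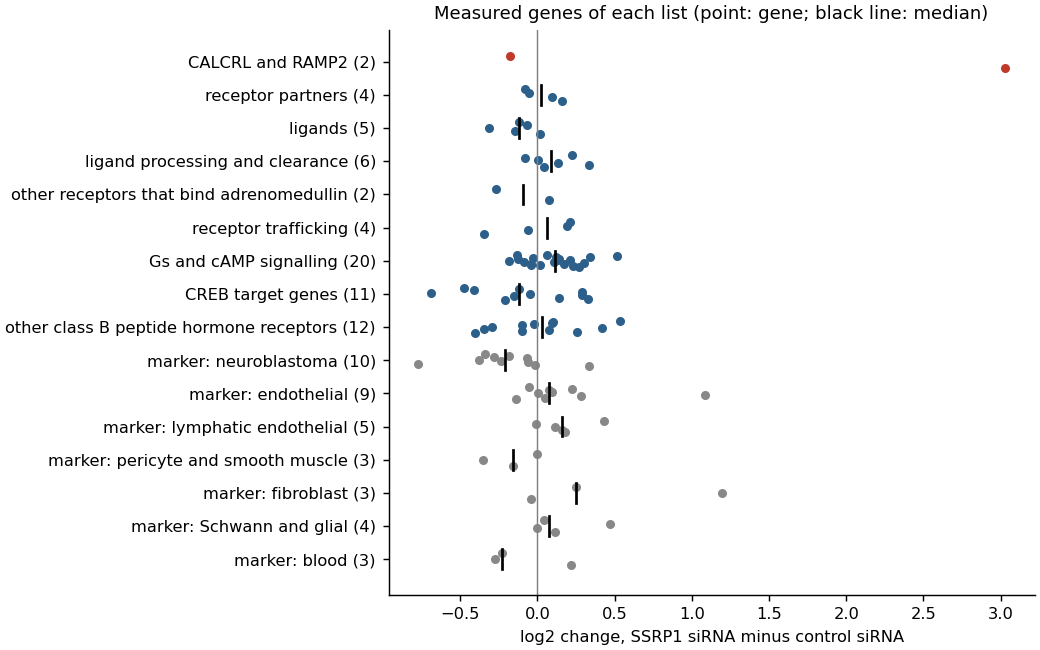
Log2 difference, SSRP1 siRNA minus control siRNA, of each measured gene in the lists around the receptor (blue) and in the cell type marker lists (grey), with CALCRL and RAMP2 in red. Each point is a gene, the number of measured genes stands in brackets and the black line is the median of the list. No gene of the blue lists lies beyond -0.69 or 0.54.

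Since the receptor pair is typical of vessel walls, markers of cell types that express it were set beside CALCRL. Of the labelled lineage, 10 neuroblastoma markers were measured, and none of them was dim, which is no detection call. None of these 10 passed the test, and 9 had differences below 0. Among the 9 were DBH, the noradrenaline-synthesising enzyme gene, at -0.77 (limma adjusted p = 0.111) and HAND2, a sympathetic lineage factor, at -0.38 (limma adjusted p = 0.263). CHGA went the other way, at 0.34 (limma adjusted p = 0.3335), with groups that did not overlap. Of 15 endothelial markers 9 were measured and none passed, with 7 above 0 and a median difference of 0.08. Their summed log2 signals were 38.0 and 36.5 on the SSRP1 siRNA arrays, against 35.3 and 36.0 on the control arrays. ESAM alone had a difference of 1.08, and the other 8 markers lay between -0.14 and 0.28.

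The endothelial markers varied among themselves. VWF, the von Willebrand factor gene, had 3.11 and 3.13 with SSRP1 siRNA, against 3.24 and 3.11 with control siRNA. KDR, a receptor for VEGF, had 2.87 and 3.07 with SSRP1 siRNA, against 2.83 and 2.93 with control siRNA. Only ESAM and ENG, 2 of the 9 measured markers, lay at or above the median level on average. Little can be read from the others. VWF, KDR and EMCN were dim in both groups, and PECAM1 and CDH5 are not analysed here. ESAM, an adhesion molecule of endothelial junctions, had 6.94 and 5.97 with SSRP1 siRNA, against 5.41 and 5.33 with control siRNA. Both SSRP1 siRNA arrays were higher, and replicate 1 more so, with a difference of 1.08 ± 0.30 (SE, limma adjusted p = 0.278). ENG, a co-receptor for TGF-beta family ligands, was not dim, with 8.26 and 8.09 with SSRP1 siRNA, against 7.90 and 7.89 with control siRNA, a difference of 0.28 (limma adjusted p = 0.385). RMA gives no signal of 0, so the absence of a marker cannot be read from it, and the part of these genes in the CALCRL value was not tested.

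None of the measured markers of other cell types passed the test. Of 5 lymphatic endothelial markers, PROX1 had a difference of 0.43 (limma adjusted p = 0.313). PROX1 is a homeobox gene of lymphatic fate that neural precursors also express. CCL21, which was dim, had a difference of 0.18 (limma adjusted p = 0.610). Of 3 pericyte and smooth muscle markers, NOTCH3 had a difference of -0.35 and CSPG4 one of -0.16. Of 3 fibroblast markers, LUM, a matrix proteoglycan gene, had a difference of 1.20 ± 0.25 (SE, limma adjusted p = 0.184), THY1 one of 0.25 and DCN, which was dim, one of -0.04. Most of the list's shift was thus that of LUM, and the summed log2 signals of the list were 17.9 and 17.6 with SSRP1 siRNA, against 16.8 and 15.9 with control siRNA. Of 4 Schwann and glial markers, S100B had a difference of 0.47 and ERBB3, which was dim, one of 0.12. Differences of these 4 ran from -0.01 to 0.47, with a median of 0.08. Of 3 blood markers, CD2 had a difference of -0.27, LYZ one of -0.23 and CD14 one of 0.22. All 3 were dim in both groups, so little can be read from them.

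The genes beside each member on its chromosome were compared next, taking the 3 nearest named and measured genes on each side in the RefSeq gene table of GRCh38.p14. CALCRL lies on chromosome 2, and its closest protein-coding neighbour on 1 side is TFPI, which encodes an inhibitor of the tissue factor pathway of clotting made largely by endothelium. TFPI had 5.73 and 4.86 with SSRP1 siRNA, against 4.27 and 3.88 with control siRNA. Both SSRP1 siRNA arrays were above both control arrays, although they differed from each other by 0.87. The difference was 1.22 ± 0.30 (SE, unadjusted p = 0.00677), and the limma adjusted p of 0.225 did not pass. On the log2 scale TFPI held place 28 among the named genes in the order of increases.

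On the other side of CALCRL the measured genes ZC3H15, FSIP2 and ZNF804A had differences of 0.04, -0.14 and -0.10. Beyond TFPI lie 2 microRNA genes, MIR561 with a difference of -0.02 and MIR1245A with one of 0.12, both near the floor of the arrays. None of these 5 passed the test. Several other genes of this stretch, ITGAV, FAM171B and ZSWIM2 among them, are not analysed here. The TFPI promoter window held 4 CpG dinucleotides and had a GC content of 39.3%. It contained AGGAAG 1 time, as the CALCRL window did, and none of the other letters searched above. AGGAAG is in 33.6% of all promoters, and a shared regulator was not tested.

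RAMP2 lies on chromosome 17, beside the antisense gene RAMP2-AS1. RAMP2-AS1 had 4.52 and 4.56 with SSRP1 siRNA, against 4.42 and 4.38 with control siRNA. Its groups did not overlap, but the difference was only 0.14 ± 0.10 (SE, limma adjusted p = 0.625). VPS25, a subunit of the ESCRT-II sorting complex on the other side, had 9.12 and 8.89 with SSRP1 siRNA, against 9.53 and 9.46 with control siRNA. Both SSRP1 siRNA arrays were lower, with a difference of -0.49 ± 0.12 (SE, limma adjusted p = 0.231). The other 4 genes were EZH1 at -0.09, CNTNAP1 at -0.36, WNK4 at 0.08 and COA3 at 0.23, and none passed the test.

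**Figure D4:**
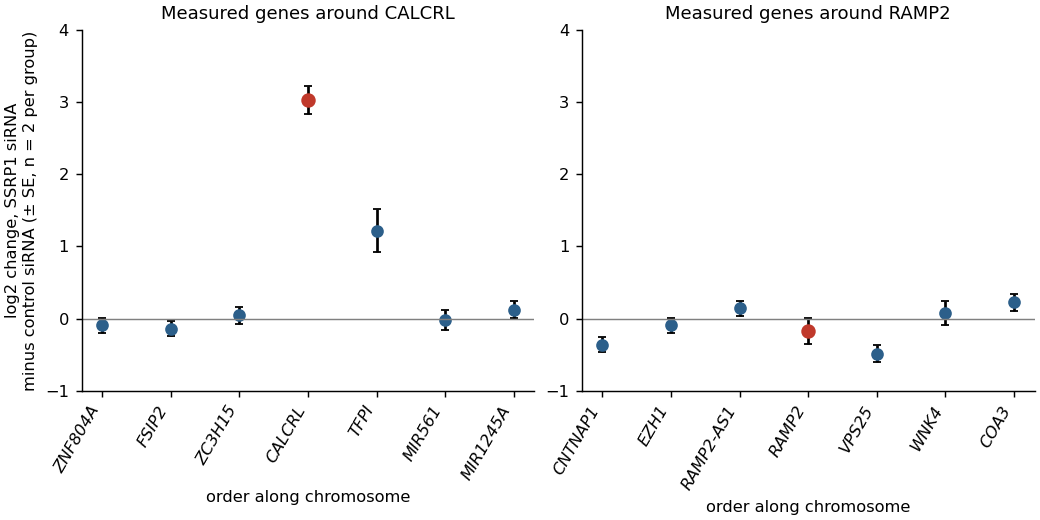
Log2 difference, SSRP1 siRNA minus control siRNA (± SE, n = 2 per group), of the 3 nearest named and measured genes on each side of CALCRL (left) and RAMP2 (right), in their order along chromosomes 2 and 17 and not to scale in distance. The members are in red. TFPI lies at 1.22, and the other neighbours of CALCRL between -0.14 and 0.12.

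The genes whose pattern over the 4 arrays was most like that of each member were found by the Euclidean distance between log2 values after subtracting each gene's mean. For CALCRL these were ADRA2A (distance 0.87), the fibrillin gene FBN1 (1.13), the endothelin B receptor gene EDNRB (1.17), the matrix Gla protein gene MGP (1.43) and the orphan receptor gene GPR83 (1.45). ADRA2A had 7.80 and 7.67 with SSRP1 siRNA, against 5.85 and 5.13 with control siRNA. FBN1 had 5.80 and 5.65 with SSRP1 siRNA, against 4.06 and 3.50 with control siRNA. All 5 were higher on both SSRP1 siRNA arrays than on both control arrays. Of these EDNRB and GPR83 passed the limma test (adjusted p = 0.0356 each), while ADRA2A (adjusted p = 0.0583), FBN1 (adjusted p = 0.0556) and MGP (adjusted p = 0.138) did not. The promoter windows listed for 4 of them held more CpG dinucleotides than the 1 of CALCRL, 26 in ADRA2A, 26 in FBN1, 34 in GPR83 and 14 and 19 in the 2 windows listed for EDNRB. AGGAAG had 0 matches in the windows of ADRA2A, FBN1 and GPR83 and in the 1 EDNRB window searched. The 5 genes were found with the values of the comparison itself, so their shared direction carries no further weight.

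For RAMP2 the nearest patterns were those of XRCC2, KCNQ1OT1, ZNF366, PRKD1 and ANKRD35, with distances from 0.032 to 0.044. XRCC2, a DNA repair gene, had 7.61 and 7.11 with SSRP1 siRNA, against 7.59 and 7.50 with control siRNA. Like RAMP2, these genes had 1 lower value on SSRP1 siRNA replicate 2 and 3 values close to each other, and none passed the test. No gene was among the 5 nearest of both members.

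**Figure D5:**
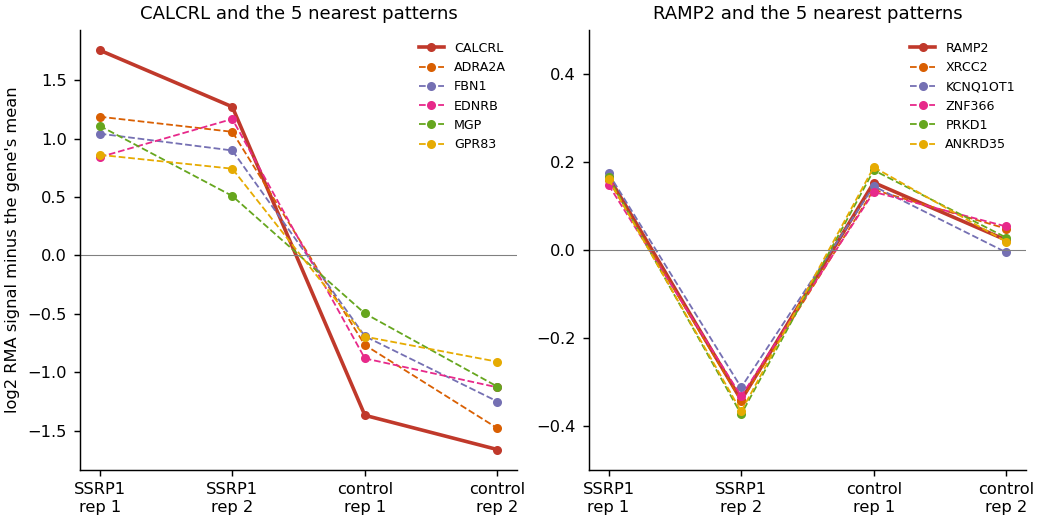
Log2 RMA signal minus the mean of each gene on the 4 arrays (SSRP1 siRNA left, control siRNA right) for CALCRL with its 5 nearest patterns and for RAMP2 with its 5 nearest, on different vertical scales. The lines only join the values of a gene. CALCRL and its nearest patterns separate the groups, whereas RAMP2 and its nearest patterns are low on SSRP1 siRNA replicate 2 alone.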

How the data were processed

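RNA from 4 samples was measured on 1 array each. The authors deposited log2 values per probe set, computed by RMA per the submitters' processing notes. Its software and version were not given in the sources used here; the log2 scale was read from the values (0.502 to 12.8), and no detection values were used. Names come from the platform annotation and the RefSeq gene table of GRCh38.p14: of 46255 probe sets 15835 had 1 symbol, 0 had several and 30420 are unnamed here. Where a gene had several probe sets (651 genes), the brightest on average was taken, which left 14812 genes.

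Samples were grouped by title. limma 3.58.1 in R 4.3.3 (lmFit, eBayes, no trend, not robust, no block) was fitted to all genes, SSRP1 siRNA minus control siRNA, with Benjamini-Hochberg adjustment and a threshold of 0.05, on 2 residual and 3.79 prior degrees of freedom, and was tested on simulated data. The members, lists and motifs were chosen with earlier results of these data known. Named genes were the members, SSRP1, the next largest increase, all measured partners, ligands, processing enzymes and other receptors, the 2 of smallest p in each other list (none held a called gene), 5 nearest patterns and 3 neighbours on each side. VWF, KDR, EMCN, DCN, CD14 and the ADCY genes were named after their values were seen. Alternatives were the replicate block, a variance trend, robust variances, quantile normalization, median centring, averaged probe sets, brighter genes only, all probe sets, each array left out, and other thresholds.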

Additional observations from a re-analysis of the deposited data

How the results depend on the processing

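The CALCRL difference was between 2.79 and 3.27 when 1 array was left out. It was between 3.03 and 3.05 under the other alternatives, higher with SSRP1 siRNA in all settings. Of those others, only quantile normalization and median centring could move either member's difference. The rest change only its error, the genes fitted or the threshold, so an unmoved value there carries no weight. The RAMP2 difference was between -0.43 and 0.079 when 1 array was left out, turning positive without SSRP1 siRNA replicate 2, and between -0.19 and -0.15 under the other alternatives. Among the pathway genes 0 passed in limma, and the count was 2 with a variance trend (PDE8A and PER1), 1 among genes at or above the median level (PDE8A), and 14 at an unadjusted p under 0.05. It was 0 under each of the other alternatives, each array left out included. Over all genes 14 passed. The count was 6 with the replicate block, 215 with a variance trend, 9 with robust variances, 28 after quantile normalization and 23 after median centring. It was 179 among genes at or above the median level, 0 in limma over all probe sets (where 3854 had an unadjusted p under 0.05), 41 at an adjusted p under 0.1 and 1865 at an unadjusted p under 0.05. It was 0 when any 1 array was left out, where limma has 1 residual degree of freedom and 1200 to 1672 genes had an unadjusted p under 0.05. The cause of these shifts was not tested. Same-numbered arrays correlated at 0.11 in their deviations from the group means, from only 2 numbers, so the numbers were not taken as pairs. The replicate block cannot move a difference of means in this balanced layout, and it called no pathway gene.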
